A study of Mus musculus with 6 samples.

Results

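The cells described here are the *Gdf5*-positive cells of Day 7 DID cultures that carried few *Prg4* transcripts. They had been labelled joint interzone-like after the markers *Gdf5*, *Osr2* and *Rarres2*, but are called *Gdf5*-positive below, after the rule, since their cartilage content varied widely from cell to cell. They were selected on the transcripts of 2 genes, *Gdf5* and *Prg4*. A Day 7 cell was taken when it held at least 2 unique molecular identifiers (UMIs, each standing for 1 captured mRNA molecule) of *Gdf5* and fewer than 5 UMIs of *Prg4*. Cells had first to hold at least 3000 UMIs, at most 7500 detected genes and at most 25% mitochondrial UMIs. The rule took 688 of the 18728 Day 7 cells that passed these limits, where 54126 cells passed in the whole series. Replicate A held 310 of 9355 (3.31%, exact 95% interval 2.96 to 3.70) and replicate B 378 of 9373 (4.03%, interval 3.64 to 4.45). These intervals cover counting error only.

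DID cultures (Digits in a Dish) are high-density cultures of dissociated distal forelimb mesenchyme from wild-type CD-1 mouse embryos at E11.5, which reassemble into digit-like and joint-like structures. No mutation, transgene or added factor distinguished any group, and the groups were named by days of culture. Whether the days shared a dissection, seeding or library batch is not stated, so day cannot be told apart from these. Dissected limb tissue was pooled before plating, and 2 independent cultures per time point, replicates A and B, were each sequenced as 1 droplet library at Day 2, Day 7 and Day 10. The libraries count the poly(A) ends of transcripts, and every p-value below measures the spread between such cultures, not between embryos.

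*Gdf5* is a secreted growth factor of the BMP family. In the embryonic limb it marks the joint interzone, the band of flattened mesenchyme that interrupts a cartilage rod where a joint will form. Interzone cells turn down matrix genes of cartilage, and their descendants contribute to articular cartilage, ligament and synovium. *Prg4* encodes lubricin, the lubricant made by cells of the joint surface. *Osr1* and *Osr2*, zinc-finger transcription factors of the odd-skipped family, and *Gdf6*, the closest relative of *Gdf5*, are further genes of the developing joint.

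Both Day 7 libraries were of like depth, with 208054830 UMIs over the cells that passed in replicate A and 200810738 in replicate B. The *Gdf5*-positive cells gave 7440730 and 6862457 of these. Their median depth was 21184 UMIs in replicate A, against 19513 in the other cells, and 11459.5 against 18631 in replicate B. The *Gdf5*-positive cells of replicate B were thus shallower than their neighbours and those of replicate A were not. Mitochondrial UMIs were a median of 2.24 and 2.13% of a *Gdf5*-positive cell in A and B and 3.09 and 2.95% of another cell. A total of 43 and 53 further cells met the *Gdf5* and *Prg4* limits but exceeded the gene limit. Doublets were not removed with a caller. The 2 Day 7 libraries shared 22 barcodes among the cells that passed, none of them *Gdf5*-positive in both.

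At the edge of the *Gdf5* rule, 116 and 144 cells of replicates A and B held exactly 2 *Gdf5* UMIs and were taken, and 551 and 602 held 1 and were not. The *Prg4* limit mattered for few cells. Among cells with at least 2 *Gdf5* UMIs, 296 in A and 363 in B held no *Prg4* UMI, 1 in each replicate held 3, none held 4, 1 in each held 5, and only 5 and 5 reached the limit or more. The median *Gdf5*-positive cell held 3 *Gdf5* UMIs and the highest held 18 in A and 23 in B. Together the *Gdf5*-positive cells carried 67.7% and 71.3% of all *Gdf5* UMIs of the cells that passed. These values follow from the selection and were not tested.

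The other markers of the label, *Osr2* and *Rarres2*, were read next. The label was given with results of these same data known, so their rise describes the cells and is no independent check. Levels are given throughout as counts per 1000000 UMIs (CPM), summed over the cells of a class in 1 library. *Osr2* stood at 22.8 and 28.7 CPM in the *Gdf5*-positive cells of replicates A and B and at 3.57 and 4.56 CPM in the other cells (log2 fold change 2.59 ± 0.12 (SE), adjusted p = 9.38e-08, from edgeR's quasi-likelihood F-test, with p-values adjusted over all genes after Benjamini and Hochberg, as for each adjusted p below). *Rarres2*, which encodes the secreted chemerin, stood at 14.51 and 23.5 CPM against 6.98 and 7.69 CPM (log2 fold change 1.28 ± 0.15 (SE), adjusted p = 0.0001). Both markers rose and neither overlapped between the classes. Few single cells showed them, however. A UMI of *Osr2* or *Rarres2* was found in 33.5% and 39.2% of the *Gdf5*-positive cells and in 11.96% and 13.1% of the other cells. The share was 17.2% and 8.16% in the 29 and 49 cells with at least 3 UMIs of the macrophage gene *Tyrobp*. Those cells should lack both markers and serve as a background, whether of free RNA or of doublets, which was not tested. The median depth of those cells was 30592 and 25388 UMIs. The separation was mainly that of *Osr2*, found in 24.8% and 26.2% of the *Gdf5*-positive cells and 3.45% and 4.08% of the *Tyrobp* cells. *Rarres2* was found in 16.1% and 22.2% against 13.8% and 6.12%, and so was near that background in A, and in 19.8% and 14.9% of the deeper cells with at least 5 *Prg4* UMIs. The share in the other cells was thus no higher than that background in A. After each cell was thinned to 3000 UMIs the shares were 14.8% and 17.5%, 3.63% and 4.22%, and 0% and 4.08%, where 0 of 29 cells allows a share of up to 10.3%. Adding *Osr1* and *Gdf6*, 60.6% and 72.0% of the *Gdf5*-positive cells and 23.2% and 25.5% of the other cells held a UMI of at least 1 of the 4 genes. Both markers were thus higher in the summed cells, and not every single cell showed a marker at its depth.

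Day 7 cells other than the 232 and 168 with at least 5 *Prg4* UMIs were then grouped by *Gdf5* itself, with 0, 1, 2, 3 to 4, 5 to 9, and 10 or more *Gdf5* UMIs. These groups held 8262, 551, 116, 108, 71 and 15 cells in replicate A and 8225, 602, 144, 124, 88 and 22 in B. *Osr1* read 20.3, 32.5, 57.3, 103, 151 and 331 CPM in replicate A and 24.1, 43.0, 90.9, 153, 223 and 232 CPM in replicate B. *Nppc* read 1.32, 6.04, 17.4, 59.0, 95.01 and 289 CPM in replicate A and 1.71, 6.72, 30.4, 78.1, 95.1 and 106 CPM in replicate B. Each step up to 5 to 9 *Gdf5* UMIs was higher than the one before for both genes in both replicates. The markers *Osr2* and *Rarres2* kept this order in B and not in A. There they read 30.2 and 17.6 CPM at 3 to 4 *Gdf5* UMIs and 24.6 and 14.6 CPM at 5 to 9. In B *Rarres2* read 33.0 CPM at 5 to 9 and 13.0 CPM at 10 or more. Cells with 1 *Gdf5* UMI, left out by the rule, lay between the groups with 0 and 2. *Col2a1* read 8773, 12271, 11137, 10595, 8389.6 and 3565 CPM in replicate A and 8035, 11105, 9932, 6357, 6713 and 8659.6 CPM in replicate B. *Col2a1*, the major cartilage collagen, was highest at 1 *Gdf5* UMI and lower from 3 UMIs on. The median depths of these groups, in the same order, were 18513, 24700, 26489.5, 13763.5, 14081 and 16107 UMIs in A. In B they were 17979, 22398, 13206.5, 10964.5, 8899.5 and 17114.5 UMIs. Each group with 3 or more *Gdf5* UMIs was thus shallower at the median than the group with 0. A deeper cell has more chances to hold *Gdf5* UMIs, and depth differed between the groups. The group of 10 or more has only 15 cells in A, so these values are a description.

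**Figure D1:**
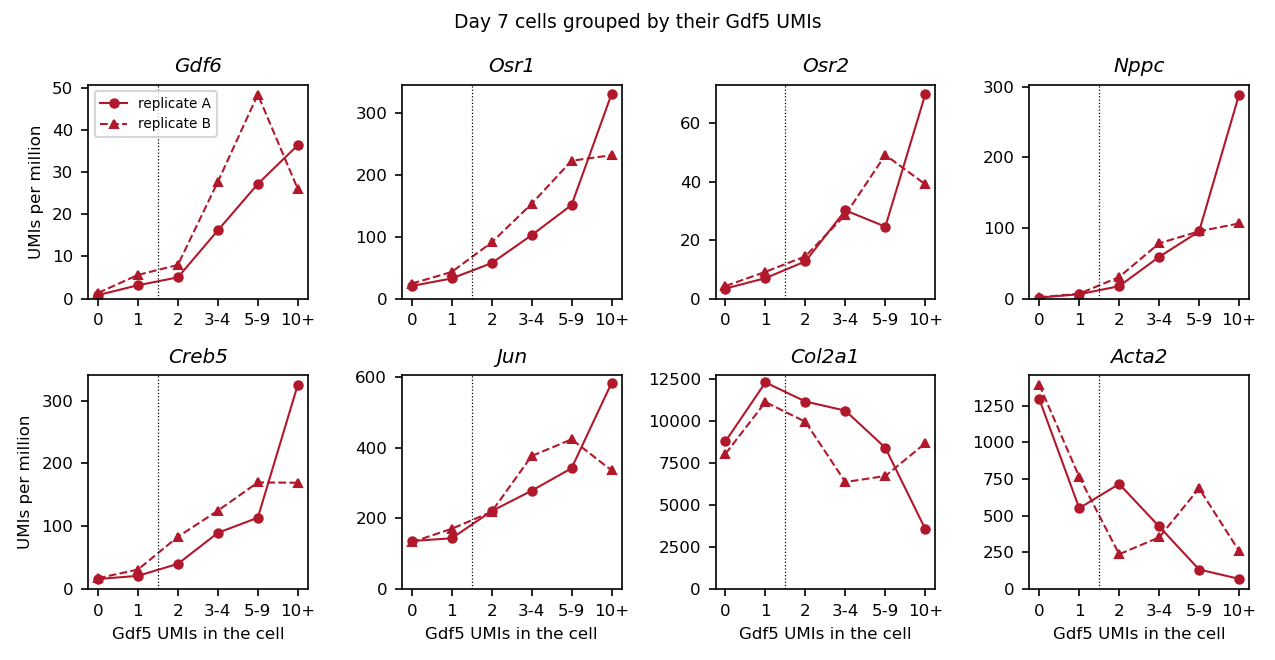
CPM of 8 genes (y axes, one panel per gene) in Day 7 cells with fewer than 5 *Prg4* UMIs, grouped by the number of *Gdf5* UMIs in the cell (x axes), with circles and solid lines for replicate A and triangles and dashed lines for replicate B; the dotted line marks the rule of 2 UMIs. *Osr1* goes from 20.3 and 24.1 CPM at 0 *Gdf5* UMIs to 151 and 223 CPM at 5 to 9, and the last points of replicate A rest on 15 cells.

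The first comparison asked which genes set the *Gdf5*-positive cells apart from all other cells of the same libraries. Of 18338 genes tested, 1074 were higher (5.86%) and 1124 lower (6.13%) in the *Gdf5*-positive cells at an adjusted p under 0.05, and the median log2 fold change over all genes was -0.03. Calls over all genes became far fewer without either Day 7 library, and more with both fitted alone, as given at the end. A list count below under those settings is to be read beside that general change and not as a trait of the list alone. Each list count of this comparison is likewise to be read beside the shares of 5.86% and 6.13%. *Gdf5* and *Prg4* are described and not counted among the members below. *Gdf5* read 163 and 225 CPM against 2.89 and 3.21 CPM, and *Prg4* 2.15 and 2.77 CPM against 42.2 and 29.0 CPM, both by construction.

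Ligands of the BMP family moved in both directions. *Gdf6* stood at 14.2 and 24.9 CPM in the *Gdf5*-positive cells and at 0.972 and 1.64 CPM in the other cells of replicates A and B (log2 fold change 3.82 ± 0.20 (SE), adjusted p = 4.47e-07). Every *Gdf5*-positive value lay above every other value. *Bmp2* rose from 10.5 and 9.35 to 18.55 and 21.7 CPM (log2 fold change 0.95 ± 0.14 (SE), adjusted p = 0.000624), *Bmp7* from 6.84 and 6.60 to 12.9 and 11.5 CPM (log2 fold change 0.79 ± 0.12 (SE), adjusted p = 0.000896) and *Bmp6* from 2.43 and 2.18 to 5.24 and 4.81 CPM (log2 fold change 1.05 ± 0.22 (SE), adjusted p = 0.0087). *Bmp4*, by contrast, was lower, at 30.6 and 38.0 CPM against 43.6 and 44.1 CPM (log2 fold change -0.43 ± 0.09 (SE), adjusted p = 0.0075). Of the antagonists, *Chrdl1* read 19.2 and 23.2 against 29.3 and 26.2 CPM (log2 fold change -0.46 ± 0.11 (SE), adjusted p = 0.0201) and *Grem1* 15.7 and 23.5 against 28.0 and 26.4 CPM (log2 fold change -0.56 ± 0.14 (SE), adjusted p = 0.0206), both lower. Among genes that respond to BMP signals, *Id1* was higher and *Smad7* and *Msx2* were lower (log2 fold changes 0.62, -0.39 and -1.10). In the whole list of 36 tested genes of BMP and GDF signalling, 6 rose, 6 fell and 24 were not called. Over all genes 5.86% rose and 6.13% fell, and the median log2 fold change of the list was -0.07. Without Day 7 replicate A 2 rose and 3 fell, without replicate B 2 rose and 2 fell, and with the Day 7 libraries fitted alone 8 rose and 12 fell.

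Ligands and antagonists of WNT signalling, a pathway that opposes cartilage formation at the joint site, moved in both directions. *Wnt4* rose from 16.2 and 17.8 to 35.3 and 34.0 CPM (log2 fold change 0.96 ± 0.15 (SE), adjusted p = 0.00114). *Wnt16*, also known from the joint interzone, was lower at 4.03 and 7.29 against 12.5 and 11.2 CPM (log2 fold change -1.15 ± 0.19 (SE), adjusted p = 0.00147). *Wnt9a*, a further interzone ligand, stood at 2.02 and 2.19 CPM against 0.962 and 1.23 CPM and did not pass the test (log2 fold change 0.87 ± 0.31 (SE), adjusted p = 0.1). The feedback genes *Axin2* and *Notum* and the antagonist *Wif1* rose (log2 fold changes 0.73, 1.12 and 0.42), while the antagonist *Dkk1* and the agonists *Rspo2* and *Rspo3* fell (-2.16, -2.30 and -0.82). Of 37 genes tested, 9 rose and 6 fell, beside 5.86% and 6.13% over all genes, with a median log2 fold change of 0.00. These counts were 3 and 2 without Day 7 replicate A and 1 and 2 without replicate B.

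Several transcription factors on the joint interzone list were higher in the *Gdf5*-positive cells. *Osr1* stood at 102 and 151 CPM against 20.9 and 25.1 CPM (log2 fold change 2.37 ± 0.09 (SE), adjusted p = 3.01e-08), with no overlap. *Ebf1*, *Ebf2* and *Ebf3*, early B-cell factors that are also active in limb mesenchyme, all rose (log2 fold changes 1.05, 1.15 and 0.63). *Erg*, an ETS factor of the developing joint, rose from 15.1 and 13.3 to 20.02 and 23.6 CPM (log2 fold change 0.54 ± 0.10 (SE), adjusted p = 0.00471). *Hoxa13* and *Hoxd13*, which specify the autopod, read 18.1 and 22.3 against 9.91 and 8.75 CPM (log2 fold change 1.04 ± 0.13 (SE), adjusted p = 0.000277) and 24.6 and 28.3 against 16.5 and 13.9 CPM (log2 fold change 0.73 ± 0.12 (SE), adjusted p = 0.00221). Both calls held without Day 7 replicate A and were lost without replicate B, where the adjusted p became 0.0733 and 0.232. The deeper cells with at least 5 *Prg4* UMIs held *Erg*, *Hoxa13* and *Hoxd13* more often, as given below. *Jun*, an AP-1 subunit, rose from 136 and 135 to 279 and 325 CPM (log2 fold change 1.08 ± 0.11 (SE), adjusted p = 5.56e-05). In the joint interzone list, 16 of 23 genes other than *Gdf5* rose and 2, *Wnt16* and *Cd44*, fell. Over all genes 5.86% rose and 6.13% fell. The median log2 fold change of the list was 0.73 beside -0.03 over all genes. The list holds the label's markers *Osr2* and *Rarres2*. It also holds *Jun*, *Ebf1*, *Hoxa13* and *Hoxd13*, which the study named for its Day 7 interzone cluster. The count therefore describes the cells and is no independent check of the label. Without Day 7 replicate B 7 of the 23 rose, and without replicate A 14 did.

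The 12 genes with the largest rise among well expressed genes included secreted factors, matrix genes and regulators. *Nppc*, which encodes C-type natriuretic peptide, a promoter of growth in cartilage, led them with 57.5 and 65.7 CPM against 1.64 and 2.05 CPM (log2 fold change 4.99 ± 0.24 (SE), adjusted p = 9.38e-08). *Slc26a7*, an anion transporter, read 35.5 and 46.0 against 2.28 and 3.23 CPM (log2 fold change 3.82 ± 0.18 (SE), adjusted p = 9.38e-08). *Dcx*, a microtubule-binding protein best known from migrating neurons, read 27.4 and 38.2 against 1.93 and 2.65 CPM (log2 fold change 3.76 ± 0.13 (SE), adjusted p = 2.94e-08). In all of these genes the lower *Gdf5*-positive library was far above the higher library of other cells. *Gas1*, a cell-surface partner of Hedgehog ligands, was at 689.9 and 955 CPM against 125 and 158 CPM (log2 fold change 2.45 ± 0.09 (SE), adjusted p = 2.06e-08). *Creb5*, a leucine-zipper factor of articular cartilage, was at 82.4 and 122 CPM against 16.8 and 18.46 CPM (log2 fold change 2.45 ± 0.10 (SE), adjusted p = 3.65e-08). *Matn2* and *Col26a1*, which encode a matrilin and a collagen, *Stc1*, a secreted glycoprotein, *Ppp1r1a*, an inhibitor of a protein phosphatase, *Angptl1*, an angiopoietin-like protein, and *Pnmal2* rose by log2 fold changes of 2.97, 2.58, 2.31, 2.25, 2.19 and 2.37. Each of the 12, *Osr1* included, was higher in both *Gdf5*-positive libraries than in either library of other cells. That follows largely from their choice, which took the largest rises with the same direction in both replicates, and is a description.

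**Figure D2:**
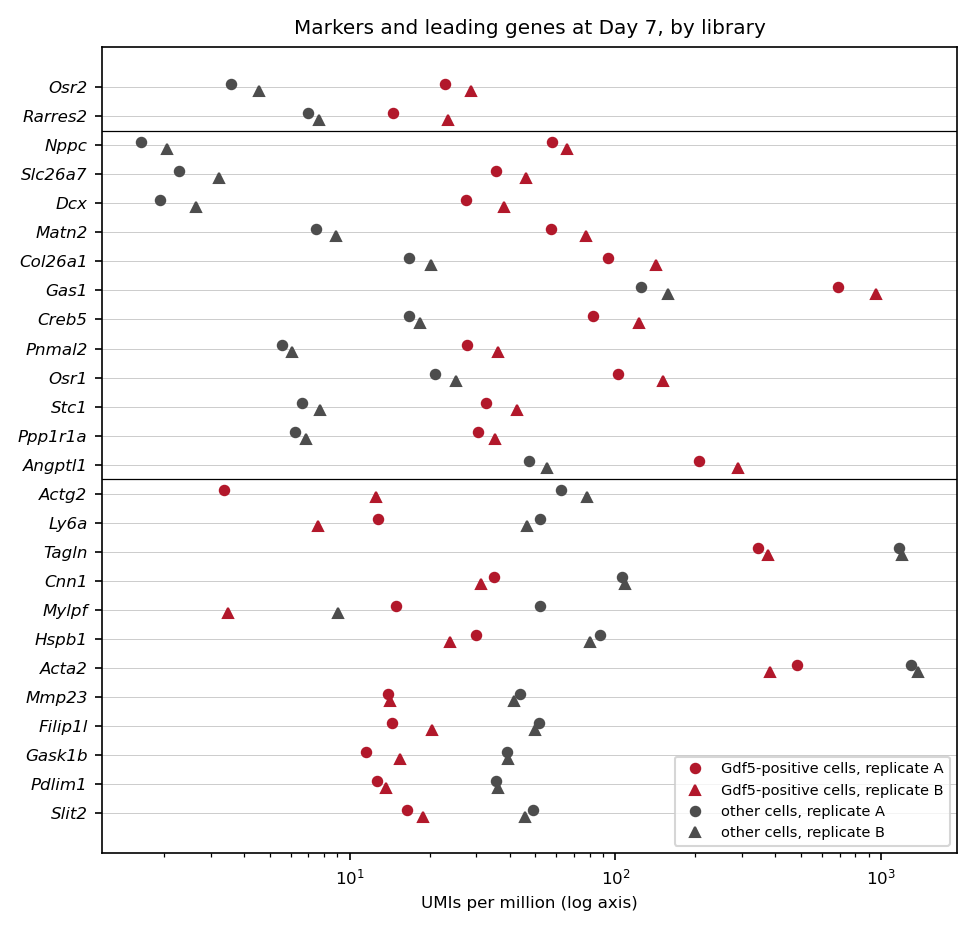
CPM on a log axis (x) of the markers *Osr2* and *Rarres2*, the 12 leading higher genes and the 12 leading lower genes (y) at Day 7; red symbols are *Gdf5*-positive cells, grey symbols other cells, circles replicate A and triangles replicate B, with no mean or error drawn. *Nppc* lies at 57.5 and 65.7 CPM in the *Gdf5*-positive cells and at 1.64 and 2.05 CPM in the other cells, and the levels of *Mylpf* in replicates A and B are 14.9 and 3.50 CPM against 51.8 and 9.04 CPM.

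The sequences just upstream of the leading regulator *Creb5* and of *Nppc* are shown because both genes rose together with *Jun* and other AP-1 genes, and AP-1 and CREB factors bind the short motifs TGANTCA and TGACGTCA. Promoter windows were looked for by symbol for the 12 leading genes and for *Gdf5*, *Gdf6*, *Osr2* and *Rarres2*, and 6 of the 16 matched, namely *Nppc*, *Dcx*, *Gas1*, *Creb5*, *Pnmal2* and *Angptl1*. Each sequence holds the 250 bases before a RefSeq transcript start in GRCm38.p6, 5′ to 3′ on the gene's strand, with motif matches in capitals. The *Nppc* window is chr1:86670574-86670823 on the minus strand, and the *Creb5* gene has a window at chr6:53287053-53287302 and another at chr6:53573124-53573373, both on the plus strand.
Nppc: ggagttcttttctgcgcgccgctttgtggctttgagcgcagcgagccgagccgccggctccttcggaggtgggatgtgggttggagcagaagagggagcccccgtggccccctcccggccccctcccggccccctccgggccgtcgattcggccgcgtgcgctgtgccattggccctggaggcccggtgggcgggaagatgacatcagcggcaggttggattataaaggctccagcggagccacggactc
Creb5, first start: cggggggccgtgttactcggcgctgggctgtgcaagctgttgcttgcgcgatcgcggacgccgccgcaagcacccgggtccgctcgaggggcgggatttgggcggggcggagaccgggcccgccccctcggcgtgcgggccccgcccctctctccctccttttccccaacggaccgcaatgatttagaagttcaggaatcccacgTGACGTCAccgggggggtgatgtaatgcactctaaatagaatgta
Creb5, second start: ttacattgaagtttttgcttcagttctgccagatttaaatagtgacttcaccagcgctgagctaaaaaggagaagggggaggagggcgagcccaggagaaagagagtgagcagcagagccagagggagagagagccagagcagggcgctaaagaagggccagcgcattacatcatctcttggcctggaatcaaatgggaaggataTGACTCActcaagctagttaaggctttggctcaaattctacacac
The first *Creb5* window held TGACGTCA once and the second held 1 match of TGANTCA, as TGACTCA, while the *Nppc* window held neither, nor the SMAD1/5 motif GGCGCC, which also was in neither *Creb5* window. Of the other windows found, those of *Dcx*, *Pnmal2* and *Angptl1* held none of the 3 motifs, and that of *Gas1* held GGCGCC once and neither of the others. Both strands were searched. Over 32851 promoter windows of the same length, TGANTCA was found in 6.75%, TGACGTCA in 1.55% and GGCGCC in 9.59%. TGACGTCA was added to the search after the windows had been seen. A match is a description of these letters and not a bound site.

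In GRCm38 coordinates, *Gdf5* lies at chr2:155941023-155945367, minus strand, *Prg4* at chr1:150449412-150466165, minus strand, *Osr2* at chr15:35296098-35303305, plus strand, *Rarres2* at chr6:48569696-48572789, minus strand, *Osr1* at chr12:9570116-9581500, plus strand, *Gdf6* at chr4:9844372-9862345, plus strand, *Nppc* at chr1:86666291-86670571, minus strand and *Creb5* at chr6:53287270-53700376, plus strand.

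About as many genes of the joint surface list rose as did not, beside 5.86% over all genes. *Prg4* itself was limited by the rule. The list summed to 1481 and 1589 CPM in the *Gdf5*-positive cells of replicates A and B and to 1565 and 1479 CPM in the other cells, so it was lower in A, higher in B and overlapped. In single cells the median share of UMIs from the list was higher in the *Gdf5*-positive cells of both replicates, at 0.169% and 0.174% against 0.145% and 0.130%. *Tspan15*, a tetraspanin, rose from 1.98 and 2.68 to 20.7 and 25.8 CPM (log2 fold change 3.25 ± 0.17 (SE), adjusted p = 1.72e-07), and *Col22a1*, a collagen of tissue junctions, from 1.41 and 1.40 to 9.004 and 18.8 CPM (log2 fold change 3.19 ± 0.30 (SE), adjusted p = 2.47e-05). *Pthlh*, the ligand that holds back cartilage hypertrophy, rose from 1.73 and 2.37 to 3.23 and 6.12 CPM (log2 fold change 1.10 ± 0.20 (SE), adjusted p = 0.00352). *Thbs4*, a thrombospondin shared with tendon, fell to 0.806 and 1.60 CPM against 10.7 and 8.32 CPM (log2 fold change -3.07 ± 0.29 (SE), adjusted p = 2.47e-05). In total 10 of 19 tested genes rose and 2 fell, with a median log2 fold change of 0.50. Without Day 7 replicate A 7 rose, and without replicate B 5 did.

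In the retinoid list, *Rarb*, a retinoic acid receptor that retinoic acid itself induces, read 11.8 and 19.7 CPM against 2.69 and 2.95 CPM (log2 fold change 2.39 ± 0.15 (SE), adjusted p = 9.62e-07). The binding proteins *Crabp1* and *Crabp2* fell (log2 fold changes -0.46 and -0.71). Of 17 genes tested 4 rose and 3 fell, with a median of 0.26. Limb patterning factors, 44 tested, split into 11 that rose and 8 that fell, with a median of 0.00. Beside *Osr1*, *Osr2* and the distal Hox genes, those that rose included *Gli3* (0.76), and those that fell included *Lhx9* and *Irx3* (-1.47 and -0.63). Without Day 7 replicate A 7 of these factors rose and 4 fell, and without replicate B 4 rose and 5 fell, while the 3 retinoid genes that fell became 2 and 0.

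The contractile list summed to 3277 and 3354 CPM in the *Gdf5*-positive cells of replicates A and B and to 7075 and 7252 CPM in the other cells. Single cells were close at the median, with 0.213% and 0.205% of their UMIs from the list against 0.232% and 0.226%, and apart at the upper quartile, with 0.306% and 0.300% against 0.496% and 0.463%. The lower quartile was slightly higher in the *Gdf5*-positive cells, at 0.129% and 0.141% against 0.124% in both replicates of the other cells. *Acta2*, smooth muscle actin, was at 484 and 381 CPM against 1291 and 1379 CPM (log2 fold change -1.71 ± 0.12 (SE), adjusted p = 2.01e-06), *Cnn1*, calponin, at 35.1 and 31.3 CPM against 106 and 109 CPM (log2 fold change -1.77 ± 0.11 (SE), adjusted p = 1.26e-06) and *Actg2*, a related smooth muscle actin, at 3.36 and 12.5 CPM against 62.5 and 77.9 CPM (log2 fold change -3.27 ± 0.21 (SE), adjusted p = 9.62e-07). *Tagln*, transgelin, was at 343 and 374 CPM against 1163 and 1204 CPM (log2 fold change -1.80 ± 0.24 (SE), adjusted p = 0.000331), and its call was lost when either Day 7 library was left out, with an adjusted p of 0.0611 without A and 0.0767 without B. In the list, 9 of 10 genes fell and none rose, with a median log2 fold change of -1.31, and 6 fell when either Day 7 library was left out. The other genes among the 12 with the largest fall were *Ly6a* (-2.34), which encodes the surface antigen Sca-1, *Hspb1* (-1.71), a small heat-shock protein, *Mmp23* (-1.68), *Filip1l* (-1.63), *Gask1b* (-1.62), *Pdlim1* (-1.52), *Slit2* (-1.50), a guidance ligand, and *Mylpf* (-1.76). *Mylpf*, a myosin light chain of fast skeletal muscle, differed widely between replicates A and B in both classes. Its adjusted p was 0.0117, and the call was lost under DESeq2 and when either Day 7 library was left out.

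Matrix genes of the perichondrium and fibrous tissue moved in both directions. *Col1a1* stood at 994 and 1190.4 CPM against 1782 and 1671 CPM (log2 fold change -0.74 ± 0.11 (SE), adjusted p = 0.000954), and *Col12a1*, *Postn* and *Tnc* read log2 fold changes of -0.92, -0.24 and -1.13, of which *Col12a1* and *Tnc* passed the test. The 3 collagen VI genes and *Col14a1* rose (*Col6a1* 0.67, *Col6a2* 0.81, *Col6a3* 0.56, *Col14a1* 0.33). *Col3a1*, a fibrillar collagen like *Col1a1*, was the fifth that rose, at 474 and 593 CPM against 426 and 399 CPM (log2 fold change 0.29 ± 0.08 (SE), adjusted p = 0.0404), a call that 7 other settings did not keep. Without Day 7 replicate B its log2 fold change was 0.077 (adjusted p 0.783). Of 18 genes, 5 rose and 11 fell, with a median of -0.47. Leaving out Day 7 replicate A gave 4 and 6, and leaving out replicate B gave 2 and 9. Tendon genes fell for *Scx*, the tendon-fate factor, and *Tnmd*, tenomodulin (-1.10 and -2.04), and *Mkx*, another tendon factor, rose (0.52). The tendon list summed higher in the *Gdf5*-positive cells, at 1188 and 1379 CPM against 981 and 930 CPM in the other cells. Its median share of the UMIs of a cell was 0.131% and 0.154% against 0.0972% and 0.0845%. The list, which shares *Col3a1*, *Thbs4*, *Tnc* and *Egr1* with other lists, gave 3 higher and 4 lower of 10, with a median of -0.76, and 1 higher without Day 7 replicate B.

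Cartilage genes of the summed *Gdf5*-positive cells were close to those of the other cells. *Col2a1* stood at 10084 and 7965 CPM against 8702 and 8057 CPM (log2 fold change 0.03 ± 0.09 (SE), adjusted p = 0.9) and *Acan*, the major cartilage proteoglycan, at 1132 and 939 against 1043 and 962 CPM (log2 fold change -0.03 ± 0.11 (SE), adjusted p = 0.899). The factors that drive cartilage formation rose without them. *Sox9* was at 408 and 398 CPM against 283 and 277 CPM (log2 fold change 0.45 ± 0.06 (SE), adjusted p = 0.000337), *Sox5* at 136 and 150.4 against 73.7 and 73.0 CPM (log2 fold change 0.89 ± 0.08 (SE), adjusted p = 1.47e-05) and *Sox6* at 85.2 and 89.5 against 61.3 and 62.6 CPM (log2 fold change 0.42 ± 0.07 (SE), adjusted p = 0.00237). These 3 were the only chondrocyte genes called of 21, with a median of 0.06. This count depended on which cells were weighed. With cells of at least 1 *Gdf5* UMI 19 of the 21 rose. When each cell was thinned to 3000 UMIs, so that deep and shallow cells counted alike, 2 rose and 15 fell, with a median of -0.46. Against other cells drawn to the same *Col2a1* share, a comparison added after the data were seen, 17 rose. The direction of the list thus changed with how cells were weighed. Genes of hypertrophic cartilage and bone showed 0 higher and 5 lower of 14, among them *Spp1*, osteopontin, and *Alpl*, alkaline phosphatase (-1.35 and -0.36), with a median of -0.12, of which 1 was left without Day 7 replicate A and 0 without replicate B. The small leucine-rich proteoglycans gave 2 lower of 10, *Omd* and *Aspn* (-0.43 and -1.01), a count that was 1 without Day 7 replicate A and 6 with cells thinned, and cell cycle genes 3 lower of 24, with a median of -0.49. The cell cycle count was 0 without either Day 7 library and 16 with the Day 7 libraries fitted alone.

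**Figure D3:**
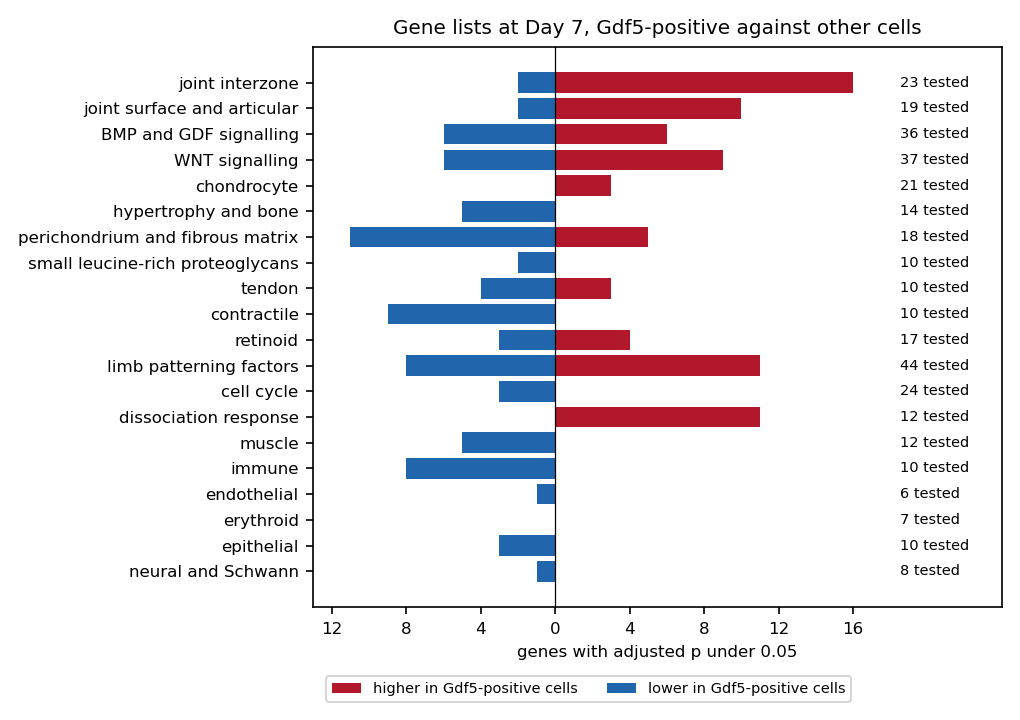
Number of genes with an adjusted p under 0.05 (x) in each of 20 gene lists (y) for *Gdf5*-positive against other cells at Day 7, red bars to the right for higher and blue bars to the left for lower genes, with the number tested at the right. The joint interzone list shows 16 higher and 2 lower of 23 and the contractile list 0 higher and 9 lower of 10, beside 5.86% higher and 6.13% lower over all genes.

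Marker lists of immune, muscle, epithelial and endothelial cells summed to less in the *Gdf5*-positive than in the other cells. None of the 310 and 378 cells held 3 or more UMIs of *Tyrobp*, which allows shares of up to 0.968% and 0.794%. The immune list summed to 3.23 and 1.17 CPM in the *Gdf5*-positive and 34.9 and 48.6 CPM in the other cells, and 8 of 10 genes were lower. That count was 3 under DESeq2, 3 with no replicate block, 2 without Day 7 replicate A and 1 without replicate B. *C1qa* was at 0 in both *Gdf5*-positive libraries, at least 18.6-fold lower taking a floor of 3 UMIs over both. The muscle list summed to 78.4 and 28.3 CPM against 132 and 53.0 CPM, with 5 of 12 lower, the epithelial list to 17.2 and 19.1 against 42.1 and 38.6 CPM, with 3 of 10 lower, the endothelial list to 11.2 and 12.1 against 15.3 and 14.8 CPM, with 1 of 6 lower, and the neural and Schwann list to 27.8 and 26.2 against 24.6 and 25.5 CPM, with 1 of 8 lower. The muscle count was 1 without either Day 7 library and 0 with no replicate block, and the epithelial count 0 without replicate A, 1 without replicate B, 1 under DESeq2 and 1 with no replicate block. The endothelial and neural counts were 0 without either library. No erythroid gene of 7 was called, and that list summed to 0 and 0 CPM in the *Gdf5*-positive and 0.0648 and 0.0464 CPM in the other cells.

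The dissociation list moved with these cells as well. Immediate-early genes such as *Fos* are induced when tissue is digested into single cells. The list of 12 summed to 2945 and 3209.8 CPM in the *Gdf5*-positive cells, 1209 and 1276 CPM in the other cells and 592 and 639.5 CPM in the *Prg4*-high cells, and 11 of 12 rose, *Jun* among them, with a median of 1.21. *Fos* was at 759.9 and 807 CPM against 282 and 313 CPM (log2 fold change 1.33 ± 0.09 (SE), adjusted p = 1.89e-06) and *Egr1* rose by 1.28. *Jun* stands on this list and on the interzone list, and *Klf2* and *Klf4* of the joint surface list are immediate-early genes as well. The part of dissociation in the rise of these genes was not tested.

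The *Gdf5*-positive cells were not uniform in cartilage content. The *Col2a1* share of single cells had quartiles of 1113 and 12335 CPM around a median of 2403 CPM in replicate A, and of 808 and 5763 CPM around 1560 CPM in B, against medians of 6572 and 4208 CPM in the other cells. Splitting each library's *Gdf5*-positive cells at their median gave 155 and 155 cells in A and 189 and 189 in B. The values below are given for the *Col2a1*-lower cells of A and B first and then for the *Col2a1*-higher cells, as a description with no test, since the split was made on these counts. The *Col2a1*-lower cells were also shallower, with median depths of 9775 and 8983 UMIs against 29866 and 17130 UMIs.

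The interzone genes named here were higher in the *Col2a1*-lower cells. *Gdf6* read 38.0 and 48.2 CPM against 2.60 and 10.6 CPM, *Osr2* 54.0 and 48.9 CPM against 7.61 and 16.2 CPM and *Rarres2* 38.0 and 48.9 CPM against 3.004 and 7.77 CPM. In each case both libraries of *Col2a1*-lower cells exceeded both of *Col2a1*-higher cells. *Nppc* read 149 and 113 CPM against 12.8 and 36.7 CPM and *Creb5* 177 and 212 CPM against 36.0 and 67.3 CPM. *Hoxa13* read 38.0 and 39.8 CPM against 8.41 and 11.5 CPM and *Hoxd13* 46.6 and 45.9 CPM against 13.8 and 17.4 CPM. The same side held *Col1a1*, at 1809.8 and 1937 CPM against 595 and 731 CPM, *Jun*, at 531 and 545 CPM against 155 and 189 CPM, and *Fos*, at 1448 and 1346 CPM against 423 and 476 CPM. *Gdf5* itself, which selected the cells, read 286 and 295 CPM against 103 and 182 CPM. *Stmn2*, a microtubule regulator of neurons that the study used among its osteoblast markers, read 76.8 and 57.7 CPM against 1.001 and 0.706 CPM. It also stands on the neural and Schwann list.

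Other genes of differentiated cartilage followed *Col2a1*, on which the cells were split. *Matn1*, matrilin-1, read 65.4 and 63.5 CPM against 3184 and 2299 CPM, *Snorc* 52.7 and 40.1 CPM against 1869 and 1561 CPM and *Acan* 135 and 120.4 CPM against 1621 and 1443 CPM. *Ihh*, the Hedgehog ligand of prehypertrophic cartilage, read 0 and 0.765 CPM against 19.2 and 27.3 CPM, and *Col10a1*, the collagen of hypertrophic cartilage, 7.77 and 9.94 CPM against 28.6 and 51.3 CPM. *Sox9* was close between them, at 386 and 311 CPM against 419 and 452 CPM. The *Col2a1*-higher cells also carried some interzone genes above the other cells of their own library, which read 1.64 and 2.05 CPM for *Nppc*, 0.972 and 1.64 CPM for *Gdf6* and 3.57 and 4.56 CPM for *Osr2*. *Osr1* likewise stood at 42.7 and 76.8 CPM in the *Col2a1*-higher cells and at 20.9 and 25.1 CPM in the other cells. *Rarres2*, at 6.98 and 7.69 CPM in the other cells, was lower in the *Col2a1*-higher cells of A and close to the other cells in B. *Hoxa13* and *Hoxd13*, by the values given above, were lower than in the other cells in A and higher in B. The sums given above for the *Gdf5*-positive cells combine both sets, and the deeper *Col2a1*-higher cells weigh more in them.

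**Figure D4:**
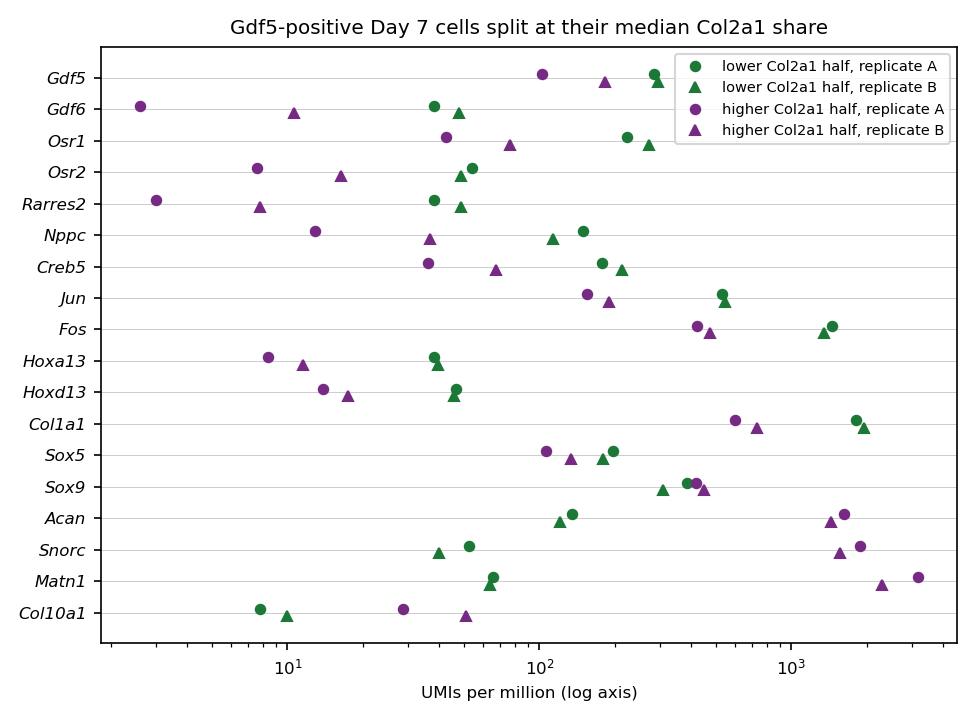
CPM on a log axis (x) of 18 genes (y) in *Gdf5*-positive Day 7 cells split at the median *Col2a1* share of each library; green is the *Col2a1*-lower and purple the *Col2a1*-higher cells, circles replicate A and triangles replicate B. *Gdf6* stands at 38.0 and 48.2 CPM in the *Col2a1*-lower and 2.60 and 10.6 CPM in the *Col2a1*-higher cells, and *Matn1* at 65.4 and 63.5 and 3184 and 2299 CPM.

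The second comparison set the *Gdf5*-positive cells against the *Prg4*-high cells of Day 7, those with at least 5 *Prg4* UMIs, of which there were 232 in replicate A and 168 in B. The *Prg4*-high cells were deeper, with median depths of 37532 and 37934 UMIs. Of 15082 genes tested, 3187 were higher (21.1%) and 3341 lower (22.2%) in the *Gdf5*-positive cells, with a median log2 fold change over all genes of 0.04. The secreted factor *Nppc* led again, at 57.5 and 65.7 CPM against 0.670 and 0 CPM (log2 fold change 7.23 ± 0.48 (SE), adjusted p = 1e-07), although the *Prg4*-high cells held only 6 of its UMIs in A and 0 in B. *Slc26a7* read 35.5 and 46.0 CPM against 1.23 and 1.57 CPM (log2 fold change 4.81 ± 0.30 (SE), adjusted p = 2.35e-08) and *Angptl1* 206 and 289.8 CPM against 7.04 and 13.5 CPM (log2 fold change 4.58 ± 0.23 (SE), adjusted p = 4.05e-09). *Col26a1*, *Pnmal2* and *Sned1*, a matrix protein, followed with log2 fold changes of 4.57, 4.21 and 4.05. *Osr1*, too, was higher than in the *Prg4*-high cells (log2 fold change 3.45), and so was *Gdf6* (adjusted p = 2.25e-07).

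Among the leading genes that were lower than in the *Prg4*-high cells, *Krt19*, a keratin, read 1.21 and 0.874 CPM against 39.98 and 45.4 CPM (log2 fold change -5.38 ± 0.39 (SE), adjusted p = 1.14e-07) and *Ly6a* 12.8 and 7.58 CPM against 268 and 249.9 CPM (log2 fold change -4.71 ± 0.13 (SE), adjusted p = 2.31e-11). *Thbs4* read 0.806 and 1.60 CPM against 59.9 and 41.3 CPM (log2 fold change -5.47 ± 0.40 (SE), adjusted p = 1.06e-07). The annexin gene *Anxa8*, the non-coding RNA gene *Morrbid* and *Rasl11a* were lower by log2 fold changes of -3.70, -3.64 and -3.39. All 21 chondrocyte genes were higher in the *Gdf5*-positive cells, with a median of 2.68, and all 10 contractile genes were lower, with a median of -2.43. The epithelial list, which holds other keratin genes and not *Krt19*, gave 2 higher and 0 lower of 7. Of 12 muscle genes 7 were higher and 0 lower, with a median of 2.41, while the muscle list summed to 78.4 and 28.3 CPM against 20.8 and 39.2 CPM, which overlapped. No immune gene of 10 was called. The part of muscle RNA in this contrast was not tested. In the interzone list 13 of 23 were higher and 7 lower, beside 21.1% and 22.2% over all genes. Of 24 cell cycle genes 15 were lower and none higher. A UMI of *Hoxd13* was found in 33.2% and 29.1% of the *Gdf5*-positive cells and 60.3% and 54.2% of the deeper *Prg4*-high cells. *Hoxa13* read 30.3% and 25.1% against 51.7% and 61.3%, and *Erg* 32.9% and 30.7% against 53.0% and 57.1%. With cells thinned, *Hoxd13* and *Erg* overlapped, at 12.3% and 10.3% against 10.3% and 10.7% and 7.10% and 10.3% against 7.33% and 8.93%. *Hoxa13* was then slightly higher, at 9.03% and 8.99% against 6.47% and 7.74%. The dissociation list, with 11 of 12 higher, moved with this contrast too.

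Cells chosen by the same rule at Day 2 and Day 10 were set beside those of Day 7. The rule took another mix of cells on each day, so a difference between days can be one of the cells taken or of levels within them, which cannot be told apart here. The median depth of the cells taken was 18504 and 20147 UMIs at Day 2 and 37015 and 34891 UMIs at Day 10 in A and B. The chondrocyte list made up a median of 0.956% and 0.688% of the UMIs of a *Gdf5*-positive cell at Day 7 in replicates A and B and 3.83% and 2.05% at Day 10. In the other cells it went from 2.05% and 1.4997% to 0.334% and 0.345%. At Day 2 the rule took 1005 of 8949 cells in A (11.2%) and 685 of 9742 in B (7.03%), and at Day 10 it took 77 of 8350 (0.922%) and 95 of 8357 (1.14%). When each cell was thinned to 3000 UMIs before selection, the Day 2 shares became 1.21% and 0.893% and those of Day 7 0.812% and 1.19%. The Day 10 shares became 0.0599% and 0.0598%. Day 2 and Day 7 overlapped on that measure and Day 10 lay below both. The shares are given as values and were not tested. From Day 2 to Day 7, 3559 of 12977 genes rose (27.4%) and 3463 fell (26.7%) within the *Gdf5*-positive cells, with a median log2 fold change of 0.00. From Day 7 to Day 10, 1130 rose (8.71%) and 1352 fell (10.4%), with a median of -0.02. All 4 counts use the same 2 Day 7 libraries.

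Of the 3 time points, *Nppc*, *Gdf6* and *Osr1* were highest at Day 7. *Nppc* stood at 0.815 and 0.708 CPM on Day 2, 57.5 and 65.7 CPM on Day 7 and 5.45 and 0 CPM on Day 10 in replicates A and B. Its fall to Day 10 passed the edgeR test (log2 fold change -4.55 ± 0.49 (SE), adjusted p = 0.000989) and not DESeq2, with an adjusted p of 0.0604. *Gdf6* stood at 3.67 and 2.77 CPM on Day 2, 14.2 and 24.9 CPM on Day 7 and 0 and 0 CPM on Day 10, where 0 UMIs allow up to 1.02 and 0.848 CPM in A and B. The rise of *Gdf6* from Day 2 had a log2 fold change 2.88 ± 0.29 (SE), adjusted p = 0.000132. *Osr1* stood at 62.2 and 61.2 CPM on Day 2, 102 and 151 CPM on Day 7 and 7.50 and 17.2 CPM on Day 10 (Day 7 against Day 2 log2 fold change 1.34 ± 0.21 (SE), adjusted p = 0.000765, Day 10 against Day 7 log2 fold change -3.24 ± 0.29 (SE), adjusted p = 0.000445). These genes were thus high in both Day 7 libraries and low in both Day 10 libraries.

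The markers that label the cells moved less before Day 7 and fell after it. *Osr2* stood at 19.0 and 19.8 CPM on Day 2, 22.8 and 28.7 CPM on Day 7 and 1.02 and 0.283 CPM on Day 10 (Day 7 against Day 2 log2 fold change 0.72 ± 0.15 (SE), adjusted p = 0.00305, Day 10 against Day 7 log2 fold change -5.28 ± 0.38 (SE), adjusted p = 0.000199), with 3 and 1 UMIs left in the Day 10 cells. *Rarres2* stood at 12.6 and 13.3 CPM on Day 2, 14.51 and 23.5 CPM on Day 7 and 2.73 and 1.70 CPM on Day 10, with log2 fold changes of 0.86 and -3.05. In the other cells, *Rarres2* read 7.76 and 6.77 CPM at Day 2 and 7.17 and 8.54 CPM at Day 10. In the Day 10 cells that met the rule no *Gdf6* UMI was detected and *Osr2* and *Rarres2* were lower, so the label was not met by the Day 10 cells. The autopod factor *Hoxd13* followed another course, at 78.6 and 92.2 CPM on Day 2, 24.6 and 28.3 CPM on Day 7 and 12.9 and 8.20 CPM on Day 10, and fell at each step (log2 fold changes -1.38 and -1.27). *Hoxa13* did likewise (-0.88 and -1.36).

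Cartilage matrix genes were among those with the largest rise from Day 2 to Day 7. *Ucma*, a matrix protein of cartilage, was at 69.3 and 43.9 CPM at Day 7 and had no UMI at Day 2, at least 709-fold higher with a floor of 3 UMIs over both libraries. *Cdsn*, corneodesmosin, was at 47.4 and 24.8 CPM and 0, at least 453-fold higher. *Snorc* read 1272 and 981 CPM against 3.17 and 2.45 CPM (log2 fold change 8.93 ± 0.23 (SE), adjusted p = 3.37e-07) and *Comp* 698 and 427 CPM against 1.81 and 2.00 CPM (log2 fold change 8.52 ± 0.36 (SE), adjusted p = 9.47e-07). *Ndufa4l2* and *Fabp4*, genes of hypoxia and of fatty acid transport, rose by 9.75 and 8.66. Of 21 chondrocyte genes 19 rose and none fell, and all 9 tested small leucine-rich proteoglycans rose. The other cells showed like rises in the summed lists. The chondrocyte list went from 3046 and 3193 to 29731 and 23549.9 CPM in the *Gdf5*-positive cells of A and B and from 2791 and 3164 to 25749 and 24281 CPM in the other cells. The proteoglycan list went from 238 and 235 to 1668 and 1859.7 CPM in the *Gdf5*-positive cells and from 318 and 336 to 1894 and 1874 CPM in the other cells. *Col2a1* itself stood at 589 and 629.7 CPM on Day 2, 10084 and 7965 CPM on Day 7 and 15738 and 11570.4 CPM on Day 10.

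The 6 leading genes that fell over the same interval were *Aldh1a2*, *Dkk1*, *Nnat*, *Sfrp2*, *B3gnt5* and *Tox3*. *Aldh1a2*, which makes retinoic acid between the digits, read 0.672 and 3.64 CPM against 84.8 and 111 CPM (log2 fold change -5.22 ± 0.36 (SE), adjusted p = 9.09e-06). *Sfrp2*, a WNT antagonist, read 32.0 and 43.3 CPM against 703 and 622 CPM (log2 fold change -3.83 ± 0.16 (SE), adjusted p = 9.74e-07), and *Dkk1*, another, 0.403 and 1.02 CPM against 39.1 and 24.3 CPM (log2 fold change -5.18 ± 0.61 (SE), adjusted p = 0.000167). *Nnat*, *B3gnt5* and *Tox3* fell by 4.62, 3.81 and 3.54 on the log2 scale. Limb patterning factors gave 27 lower and 4 higher of 41, and cell cycle genes 22 lower and none higher of 24. Beside 27.4% that rose and 26.7% that fell over all genes, 6 of 23 interzone genes rose and 12 fell. The rises were thus near the share over all genes. Limb patterning, cell cycle and interzone genes were then read in the other cells. These lists summed to less at Day 7 in the other cells as well. There limb patterning went from 2383 and 2402 to 1140 and 1124 CPM in A and B. The cell cycle list went from 3968 and 4199 to 1296 and 1328 CPM, and the interzone list from 1475 and 1398 to 724 and 720 CPM. Of 12 dissociation genes 8 rose and 0 fell in the *Gdf5*-positive cells.

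From Day 7 to Day 10 bone genes rose in the cells chosen by the rule, and the list was higher at Day 10 in the other cells too. The hypertrophy and bone list summed to 576 and 606 CPM at Day 7 and 2358 and 4816 CPM at Day 10 in the cells chosen, and to 957 and 939 CPM and 2777 and 3091 CPM in the other cells, which in A stood above the chosen cells at both days. *Ibsp*, bone sialoprotein, read 694 and 2573 CPM against 3.90 and 4.66 CPM (log2 fold change 8.64 ± 0.68 (SE), adjusted p = 0.000293), and *Ifitm5*, a gene of osteoblasts, 29.0 and 37.3 CPM against 0.403 and 0.146 CPM (log2 fold change 6.91 ± 0.36 (SE), adjusted p = 5.22e-05). *Sgms2* and *Dqx1* rose by 4.22 and 3.81. Of 14 genes of hypertrophy and bone 12 rose and none fell, with a median of 2.41. The chosen cells of Day 10 replicate B also summed higher than those of A on lists of other cell types. The epithelial list read 95.2 against 22.1 CPM, the immune list 74.3 against 2.39 CPM and the contractile list 7941 against 3144 CPM. *Msln*, mesothelin, and *Krt7*, a keratin, were also called, but with 3.75 and 71.2 CPM and 3.07 and 59.9 CPM in Day 10 replicates A and B their levels were mainly those of B. Without that library the log2 fold change of *Msln* was smaller and the call of *Krt7* was lost (1.02, adjusted p = 0.316), and both calls were lost when either Day 7 library was left out (adjusted p 0.0884 and 0.117 for *Msln*, 0.103 and 0.152 for *Krt7*).

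Of the 6 leading genes that fell, all but *Hist1h2ap* were among the leading genes of the Day 7 cells. Both choices used the same Day 7 libraries, and a high value there favours a fall, so this overlap is a description. *Dcx* went from 27.4 and 38.2 CPM to 0 in both libraries, at least 70.8-fold lower with a floor of 3 UMIs over both. *Slc26a7* read 2.04 and 0.283 CPM against 35.5 and 46.0 CPM (log2 fold change -5.15 ± 0.42 (SE), adjusted p = 0.000321) and *Creb5* 6.13 and 4.804 CPM against 82.4 and 122 CPM (log2 fold change -4.16 ± 0.29 (SE), adjusted p = 0.000199). *Ppp1r1a* fell by 3.94 on the log2 scale. *Hist1h2ap*, a replication-dependent histone gene whose near-identical copies make its count uncertain, read 11.6 and 10.2 CPM against 400.1 and 286 CPM (log2 fold change -4.91 ± 0.21 (SE), adjusted p = 3.05e-05). In the interzone list 15 of 23 fell and 1 rose, beside 10.4% and 8.71% over all genes, with a median of -1.36. The dissociation list fell as well, 9 of 12, and summed to 1032 and 1447 CPM at Day 10.

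**Figure D5:**
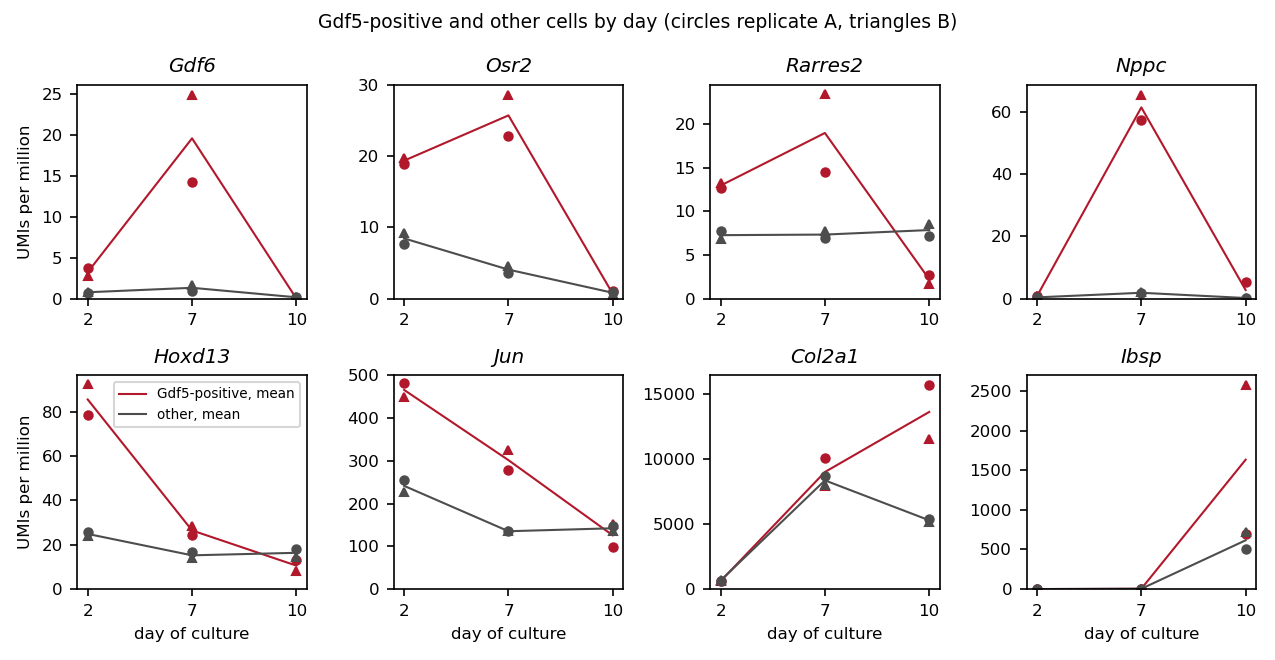
CPM (y axes, one panel per gene) in cells chosen by the same rule (red) and in the other cells (grey) at Day 2, Day 7 and Day 10 of culture (x axes); circles are replicate A, triangles replicate B, and lines join the means of the 2 cultures. *Gdf6* goes from 14.2 and 24.9 CPM at Day 7 to 0 and 0 at Day 10, and *Ibsp* from 3.90 and 4.66 to 694 and 2573 CPM.

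Whether the difference between *Gdf5*-positive and other cells itself changed with the day was tested with the same model. It differed between Day 7 and Day 2 for 771 of 18338 genes (4.2%) and between Day 10 and Day 7 for 1207 (6.58%), with medians over all genes of 0.04 and -0.10. Most genes named here were chosen for a large difference at Day 7, which favours a smaller one at the other days, so their steps are values and not evidence for a peak at Day 7. The log2 fold change of *Osr1* between the classes was 1.22 on Day 2, 2.37 on Day 7 and 0.03 on Day 10, and both steps passed the test (differences 1.15 and -2.34, adjusted p = 0.000302 and 4.09e-05). *Col26a1* differed little at Day 2 and Day 10 (-0.03 and 0.18) and by 2.58 at Day 7, and both steps passed (adjusted p = 2.24e-07 and 1.55e-05). For *Hoxd13* the difference was highest at Day 2, with 1.63, then 0.73 at Day 7 and -0.69 at Day 10. *Col2a1*, close between the classes at Day 7, read a log2 fold change of 1.31 between them at Day 10, and the step from Day 7 passed the test (1.28, adjusted p = 0.000159). Among the 12 leading higher genes, *Stc1*, *Nppc* and *Angptl1* kept differences of 1.77, 3.97 and 1.47 at Day 10. Their steps from Day 7 did not pass (adjusted p = 0.337, 0.476 and 0.266). The Day 10 difference of *Nppc* rested on replicate A, since the *Gdf5*-positive cells of B held none of its UMIs.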

How the data were processed

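Single-cell RNA sequencing libraries of 6 DID cultures, 2 per time point, were analysed. Per the labels and the study's methods, the authors aligned reads with Cell Ranger 6.1.2 (STAR) to GRCm38, and the deposited matrices hold raw UMI counts per gene and barcode for called cells, with no normalization. All counts were whole numbers, which was checked. Barcodes with at least 3000 UMIs, at most 7500 genes and at most 25% mt- UMIs were kept, a stricter UMI limit than that of the study.

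UMIs were summed over the *Gdf5*-positive cells and over the other cells of each library, since cells are not replicates. The 12 sums (18338 genes after filterByExpr, TMM factors 0.921 to 1.19, common biological coefficient of variation 0.0599, 3 residual and 8.84 prior degrees of freedom) were tested with edgeR 4.0.16 (glmQLFit and glmQLFTest, R 4.3.3), with the library as a term and a class term per day. The smallest library class held 17 cells, and none was left out. The 18 sums with *Prg4*-high cells set apart (15082 genes) were tested alike. The 6 sums of *Gdf5*-positive cells (12977 genes, coefficient 0.0963) were tested with the same functions and a term per day, without a library term. An adjusted p under 0.05 made a call. The SE given with a log2 fold change is its absolute value divided by the square root of the F statistic. It was derived from the test and is not a standard error reported by the fit. On simulated sums of the Day 7 comparison (17851 genes), 100 of 100 genes changed at a log2 fold change of 1 and 100 of 100 at 2 were called, and 10 of 17651 unchanged genes. The simulation gave all genes the same spread and placed changes only in well expressed genes. It therefore does not gauge the calls of weakly expressed or more variable genes.

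The genes named are *Osr2* and *Rarres2*, the 12 (Day 7 classes) or 6 (other comparisons) called genes with the largest change per direction among those of at least 30 CPM in the higher group that moved the same way in both replicates, leaving out *Gdf5*, *Prg4* and predicted, mitochondrial and ribosomal genes, and from each of 20 lists (333 genes) up to 4 called genes per direction and those the study names; a few uncalled or further list genes were picked with their values in view. The cells, lists and tests were chosen with earlier results of these data known. CPM are counts per 1000000 UMIs of the class without TMM factors. Of 32286 features 32158 matched the GRCm38 annotation. Alternatives were DESeq2 1.42.0, other factors, filters, *Gdf5* limits, cell draws, thinning to 3000 UMIs and leaving out each library. Sums and figures were made in Python 3.11.15 with scipy 1.17.1, numpy 2.4.6, matplotlib 3.10.9 and pandas 2.3.3. Images and staining were not analysed here.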

Additional observations from a re-analysis of the deposited data

Results flagged for a closer look

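The difference between *Gdf5*-positive and other cells was compared between days for 33 named genes, with edgeR's quasi-likelihood test of the interaction and Benjamini-Hochberg adjustment over all 18338 genes. Most of the 33 were named for a large difference at Day 7, which favours a smaller one at the other days, so the counts among them are a description and support nothing. Between Day 2 and Day 7 it differed past the threshold for 22 of them, where 4.2% of all genes did. The log2 difference was larger at Day 7 for *Nppc* (4.10), *Slc26a7* (2.00), *Dcx* (3.45), *Matn2* (2.42), *Col26a1* (2.61), *Gas1* (1.33), *Creb5* (0.94), *Pnmal2* (2.73), *Osr1* (1.15), *Stc1* (2.96), *Ppp1r1a* (2.55), *Angptl1* (1.39), *Osr2* (1.53), *Gdf6* (1.87), *Sox5* (0.48) and *Fos* (0.67), and lower at Day 7 for *Actg2* (-1.36), *Cnn1* (-0.87), *Mmp23* (-1.45), *Filip1l* (-1.15), *Slit2* (-1.86) and *Hoxd13* (-0.91).

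Between Day 7 and Day 10 it differed for 19 of the 33, where 6.58% of all genes did. The log2 difference was lower at Day 10 for *Slc26a7* (-3.28), *Dcx* (-12.03), *Matn2* (-2.75), *Col26a1* (-2.40), *Gas1* (-2.81), *Creb5* (-3.23), *Pnmal2* (-1.56), *Osr1* (-2.34), *Ppp1r1a* (-3.63), *Osr2* (-3.00), *Rarres2* (-3.19), *Gdf6* (-10.88), *Jun* (-1.31), *Hoxd13* (-1.41), *Hoxa13* (-1.66), *Sox5* (-0.61) and *Fos* (-1.86), and higher at Day 10 for *Ly6a* (1.84) and *Col2a1* (1.28). The values of *Dcx* and *Gdf6* are set by 0 UMIs in the Day 10 *Gdf5*-positive cells and depend on the prior count of the fit, so they are not sizes of change. The Day 10 *Gdf5*-positive cells numbered 77 and 95, which limits the precision of the second set, and a fixed limit of 2 *Gdf5* UMIs selects other cells at other depths, which was not tested for these differences. *Fos* and *Jun* also belong to the dissociation list, which moved with the classes.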

How the results depend on the processing

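Of 26 leading genes and markers of the Day 7 comparison, each recomputed under 15 settings, 383 of 390 checks kept direction and call, 7 lost the call and 0 reversed; the losses were *Tagln* and *Mylpf*, as given above, *Mylpf* also without the replicate block (adjusted p 0.365) and against other cells drawn to the *Col2a1* share (0.142). One named gene reversed, *Col3a1*, which had a log2 fold change of -0.049 with cells of at least 1 *Gdf5* UMI (adjusted p 0.627). Its call was also lost under DESeq2 (0.0515), with no replicate block (0.0991), under the study's cell filter (0.0641), when thinned (0.0629), without Day 7 replicate B (0.783) and against other cells drawn to the *Col2a1* share (0.693). The cause was not tested. Over all genes recomputed for the Day 7 comparison, these 26 and list genes together, 86 of 252 checks that left out a library lost the call, as did 109 of 1636 under the other settings, where 44 gained it.

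The Day 7 count of higher genes, 1074, became 1628 with the Day 7 libraries alone and 246 to 442 when a Day 7 library was left out. The count of lower genes, 1124, became 1704 with no filter on low counts, 1881 with Day 7 alone, 1806 with cells of at least 1 *Gdf5* UMI and 197 to 276 without a library. Against *Prg4*-high cells, 6528 became 2489 with cells thinned and 3698 to 3903 without a library. Within *Gdf5*-positive cells, Day 7 against Day 2 went from 7022 to 3678 when thinned and 4392 to 5124 without a library, and Day 10 against Day 7 from 2482 to 1054 and 439 to 2818. The change of the class difference from Day 2 to Day 7 went from 771 to 1458 with no filter and 183 to 447 without a library, and that from Day 7 to Day 10 from 1207 to 1961 with no filter, 562 when thinned and 181 to 2513 without a library, the lowest without Day 7 replicate B. DESeq2 split that last contrast into 670 higher and 643 lower against 356 and 851. Thinning leaves fewer UMIs per sum, and leaving out a library leaves its day with 1 culture, assumed to vary like the others.

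The share of *Gdf5*-positive cells at Day 7 was 9.20% and 10.5% in A and B with at least 1 *Gdf5* UMI, 2.07% and 2.497% with at least 3, 2.29% and 3.08% under the study's cell filter, and 0.812% and 1.19% when cells were thinned before selection, where Day 2 read 1.21% and 0.893%, against 3.31% and 4.03%. It thus follows the depth and the limit. Drawing other cells to the *Col2a1* share, added after the data were seen, gave 1131 higher and 1169 lower genes.

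Replicate letters A and B recur at each day. Across 12977 genes, the deviations of A from B correlated at 0.077 between Day 2 and Day 7. The correlation was 0.048 between Day 7 and Day 10 and -0.036 between Day 2 and Day 10. These values cannot show whether cultures of the same letter shared a dissection, seeding or library batch, and that was not tested. With a replicate block, Day 7 against Day 2 gave 6711 calls and Day 10 against Day 7 2267. Without the library as a block, the classes at Day 7 gave 1141 higher and 940 lower genes, and *Gdf5*-positive against *Prg4*-high cells 6554.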
